A study of Mus musculus with 12 samples.

Results

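The unfolded protein response of the endoplasmic reticulum and the integrated stress response were followed through 36 genes in brown adipose tissue, the heat-producing fat. They were chosen by symbol from a list of reticulum chaperones, stress sensors, stress transcription factors, Atf4 targets, enzymes of serine and one-carbon synthesis and amino acid transporters. All 36 were found among the 24197 genes of the table, and all 36 were among the 15265 genes that passed the filter on low counts. The mice were 8 to 10 weeks old, and all of them carried floxed Ebf2 alleles (Ebf2 fl/fl). Ebf2 is a transcription factor gene of the brown adipocyte lineage. Mutants also carried Adipoq-Cre (Adipoq-Cre+; Ebf2 fl/fl), a recombinase under the adiponectin promoter that acts in adipocytes, so the other cell types of the tissue were not targeted. Controls lacked the recombinase (Adipoq-Cre-; Ebf2 fl/fl) and are titled WT by the submitters. There were 12 libraries in 4 groups of 3: mutants and controls held for 1 week in the cold (4C), and mutants and controls at room temperature (RT). Whether the 3 libraries of a group came from 3 animals is not said in the labels, and each p-value then reflects library-to-library spread that may be technical.

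The endoplasmic reticulum folds secreted and membrane proteins, and misfolded protein in it is sensed by Atf6, by the nuclease Ern1, which splices the mRNA of the transcription factor Xbp1, and by the kinase Eif2ak3 (PERK). Eif2ak3, and Eif2ak4 (GCN2) when amino acids run short, phosphorylate the translation initiation factor eIF2alpha; general translation then falls while translation of Atf4 rises, and Atf4 drives genes for amino acid import and synthesis. In brown fat, mitochondrial stress is known to engage Atf4 and its targets. Gene counts carry mRNA levels alone and show neither the splicing of Xbp1, nor the cleavage of Atf6, nor the phosphorylation of eIF2alpha.

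The best known DNA elements of both pathways were looked up in RefSeq promoter windows of build GRCm38.p6, running from 250 bases before to 50 bases after the transcription start. The counts were made on mm9, so windows and counts were joined by gene name, and 33 of the 36 genes had at least 1 window, 36 windows in all. Atf6, Manf and Slc7a5 had none. The endoplasmic reticulum stress element, bound by Atf6 and its partners, was searched on both strands as CCAAT and CCACG with 9 bases between them. It was found in 7 of the 33 genes, all chaperones or folding enzymes (Hspa5, Hsp90b1, Calr, Canx, Pdia6, Dnajc3 and Creld2), against 37 of 27025 genes with a window. By window, 39 of the 32851 promoter windows of all genes held it (0.119%). The amino acid response element, bound by Atf4, was searched as TGATGNAA on both strands. It was found in 5 of the 33 genes (Trib3, Asns, Chac1, Slc7a11 and Herpud1), against 1219 of the 27025 genes and 1304 of the 32851 windows (3.97%). The unfolded protein response element TGACGTGG was in 0 of the 33 genes, against 193 of the 27025 genes and 0.676% of all windows. No window held more than 1 of these kinds of element, and a match here is a match of letters. The stretches below are shown because they carry these elements in genes whose levels are given further on; capitals mark the stress element in the first 4 and the amino acid response element in the next 4, and each is written 5′ to 3′ on the strand named.
Hspa5 (chr2:34772010-34772058, plus strand): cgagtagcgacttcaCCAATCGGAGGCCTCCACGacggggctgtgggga
Pdia6 (chr12:17266476-17266524, plus strand): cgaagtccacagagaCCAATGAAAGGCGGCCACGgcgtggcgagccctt
Hsp90b1 (chr10:86705518-86705566, plus strand): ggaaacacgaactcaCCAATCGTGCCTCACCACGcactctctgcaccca
Dnajc3 (chr14:118937812-118937860, plus strand): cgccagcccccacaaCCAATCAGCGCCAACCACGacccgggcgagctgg
Trib3 (chr2:152344028-152344057, plus strand): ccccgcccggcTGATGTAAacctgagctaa
Slc7a11 (chr3:50443657-50443694, minus strand): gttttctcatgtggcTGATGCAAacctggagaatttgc
Asns (chr6:7693210-7693247, minus strand): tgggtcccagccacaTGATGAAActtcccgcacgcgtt
Chac1 (chr2:119351034-119351071, minus strand): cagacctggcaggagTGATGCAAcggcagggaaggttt
Counted from the RefSeq transcription start as 0, the element of Hspa5 lies at -65 to -47, that of Asns at -23 to -16, and that of Trib3 at 14 to 21. For Trib3 and Dnajc3, bases just after that start were not found in the GENCODE transcripts of the gene. Their start was therefore not borne out by that check. Hsp90b1 and Slc7a11 each held 2 matches, of which 1 is shown.

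Library totals ran from 25835650 to 37927038 counts, at which 3 counts equal 0.0764 to 0.114 CPM. CPM are a gene's counts scaled to a common library size with edgeR's TMM factors. Such floors and the intervals below cover counting error only. The targeted gene, Ebf2, had 28.7, 21.6 and 27.0 CPM in cold libraries labelled mutant, against 52.3, 42.2 and 41.6 CPM in cold controls (log2 fold change -0.82 ± 0.25, adjusted p = 0.153), so the groups did not overlap but the test was not passed. At RT it had 65.2, 45.7 and 38.3 CPM in libraries labelled mutant, against 47.4, 64.1 and 32.0 CPM in controls (log2 fold change 0.06 ± 0.25, adjusted p = 0.931), with full overlap. The gene count may include reads from exons outside the deleted part, and because it does not separate the genotypes at RT, the genotype is given below as labelled. Ucp1, the heat-producing uncoupling protein, was lower at RT in the libraries labelled mutant (log2 fold change -1.77 ± 0.39, adjusted p = 0.0199), and all 10 brown adipocyte markers were detected in every library. Their sum moved with both factors, at 40925 to 43824 CPM in cold labelled mutants, 32362 to 34382 CPM in cold controls, 29568 to 35571 CPM in labelled mutants at RT and 24283 to 28627 CPM in controls at RT. The 7 endothelial markers summed to 879 to 997 CPM in the 6 cold libraries, against 541 to 787 CPM in the 6 at RT. The 6 fibroblast markers summed to 535, 413 and 1730 CPM in cold labelled mutants, against 1308 to 1574 CPM at RT, and to 514 to 917 CPM in cold controls, against 984 to 1593 CPM at RT. The 11 lens markers summed to 54.8 to 104 CPM in labelled mutants at RT, against 282 to 722 CPM in controls. In the cold they summed to 132 to 186 CPM in labelled mutants and 174 to 273 CPM in controls. Neither range overlapped that of its genotype at RT. B cell markers (9.53 to 27.4 CPM) overlapped between all groups. Macrophage markers (8 in the table) summed to 96.8 to 112 CPM in cold labelled mutants, against 121 to 179 CPM at RT, and overlapped in the other comparisons. The part of these cell types in the results below was not tested. Markers of other tissues varied between libraries: the 16 skeletal muscle markers took 0.00284% to 2.76% of a library's counts, with 4 libraries at 0.940% or more (mutant RT 3, control RT 1, control RT 3 and control cold 3). The 8 epithelial markers summed to 262 CPM in mutant cold 3 and to at most 26.2 CPM elsewhere. At RT they summed to 7.64 to 12.3 CPM in labelled mutants and 15.9 to 26.2 CPM in controls. Cold controls had 2.89 to 14.3 CPM. In bulk tissue, fewer cells of a type and less RNA per cell cannot be told apart.

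Cold changed these genes in opposite directions rather than as a block. In the labelled mutants, cold raised 9 of the 36 genes (Atf5, Atf6, Eif2ak3, Manf, Trib3, Psph, Mthfd2, Slc7a11 and Slc7a5), while 10.0% of the 15265 genes tested were called higher. It lowered 4 of them (Xbp1, Pdia6, Dnajb9 and Phgdh), while 7.42% of all tested genes were called lower. In controls, cold raised 4 of the 36 (Atf5, Trib3, Psph and Slc3a2), against 4.31% of all tested genes, and lowered 1 (Phgdh), against 2.31%. A gene is called here when its adjusted p in edgeR's quasi-likelihood F-test, by Benjamini-Hochberg over all tested genes, was below 0.05. The shares called higher stood above the background in both genotypes, by a few genes, and the 1 gene lowered in controls stood near it. The 9 raised in labelled mutants became 5 without mutant RT 2 or 3 and 4 without the 4 libraries rich in muscle markers. The 4 lowered became 2 without mutant RT 2 or mutant cold 1 or 2, and 1 without the muscle-rich libraries. In controls the 4 raised became 2 without control cold 1 or 2. Leaving out the muscle-rich libraries leaves 1 control RT library. The control log2 fold changes were then 0.95 for Atf5, 1.85 for Trib3, 1.19 for Psph, 1.02 for Slc3a2 and -1.48 for Phgdh. DESeq2 called 14 of the 36 in the labelled mutants and 10 in controls. Of all genes it called 3426 and 2018, more than edgeR (2663 and 1010). The median log2 fold change of the 36 was 0.05 in labelled mutants and -0.09 in controls, where that of all tested genes was -0.01 in both.

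The cold effects of both genotypes rest on separate libraries. They had the same sign for 30 of the 36 genes, and all 13 genes called in labelled mutants had the same sign in controls, as did all 5 called in controls the other way round. Across the 36 genes Pearson's r between both sets of log2 fold changes was 0.888, as a description over genes that share libraries and 1 estimate of spread. The same share and r over all tested genes are not given here, so this agreement is not read as particular to the set. Atf5, Trib3, Psph and Phgdh were called in both genotypes, in the same direction. The test of the difference itself, the interaction of genotype and temperature, called 0 of the 36 in either direction with edgeR (0.295% of all tested genes higher and 0.183% lower). DESeq2 called 0 of the 36, and 452 genes in all. In edgeR 4 of the 36 had an unadjusted p under 0.05 (Atf6, Hspa5, Phgdh and Slc7a5), as did 12.2% of all tested genes. No gene of the set was therefore shown to respond to cold differently in the labelled mutants. Between cold and RT, 10 of the 36 were higher and 4 lower without overlap in labelled mutants (16.7% and 16.0% of all tested genes), and 9 were higher and 8 lower without overlap in controls (18.9% and 14.4%).

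**Figure D1:**
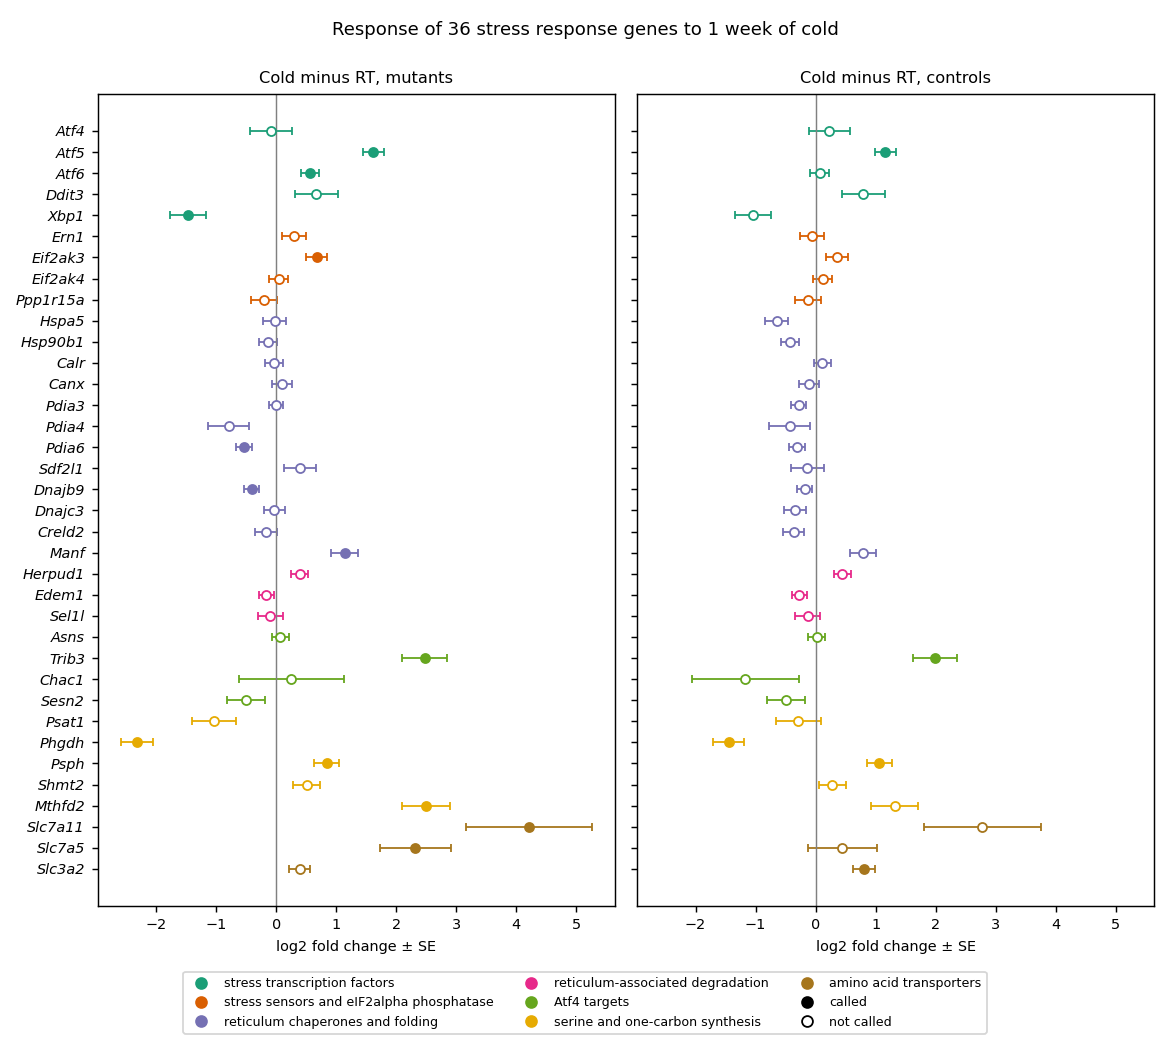
Log2 fold change of cold over RT with its standard error (horizontal axis) for each of the 36 genes (rows, coloured by role), in labelled mutants on the left and in controls on the right; filled points are called. Trib3, Mthfd2 and the transporters lie to the right and Phgdh and Xbp1 to the left in both panels, and 30 of the 36 genes have the same sign in both.

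Among the 5 stress transcription factors, cold raised Atf5 in both genotypes and Atf6 in labelled mutants, and lowered Xbp1 in labelled mutants, while Atf4 and Ddit3 were not called in any comparison. Atf5 is an activator close to Atf4 that is known for the mitochondrial unfolded protein response. It had 506, 633 and 453 CPM in cold labelled mutants, against 154, 186 and 180.0 CPM at RT (log2 fold change 1.62 ± 0.17, adjusted p = 0.000184). In controls Atf5 had 528, 441 and 449 CPM in the cold, against 195, 252 and 187 CPM at RT (1.16 ± 0.17, adjusted p = 0.00347). All 6 cold libraries stood above all 6 RT libraries, and both calls were kept whichever of the 12 libraries was left out. Atf4 itself had 135, 165 and 75.4 CPM in cold labelled mutants and 166, 132 and 122 CPM in cold controls, with 174, 135 and 90.6 CPM in labelled mutants at RT and 149.6, 68.8 and 139 CPM in controls at RT. Its groups overlapped in every comparison, and its log2 fold changes were -0.09 ± 0.34 for cold in labelled mutants and 0.23 ± 0.34 in controls (adjusted p = 0.891 and 0.724). Ddit3 (CHOP) promotes cell death under lasting stress. It had 30.1, 45.0 and 20.5 CPM in cold labelled mutants, against 30.2, 14.4 and 15.4 CPM at RT (0.67 ± 0.36, adjusted p = 0.243). In controls Ddit3 had 59.4, 30.9 and 45.6 CPM in the cold, against 28.8, 19.4 and 30.0 CPM at RT (0.80 ± 0.36, adjusted p = 0.211); these 2 groups did not overlap, but the test was not passed.

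Xbp1 drives chaperone and degradation genes once its mRNA is spliced. It had 63.0, 42.5 and 96.5 CPM in cold labelled mutants, against 136, 239 and 187 CPM at RT (log2 fold change -1.47 ± 0.30, adjusted p = 0.00671). Each cold library of that genotype was below each RT library, and the call was kept whichever library was left out. Controls had 39.97, 66.9 and 59.6 CPM in the cold, against 99.7, 134 and 109 CPM at RT (-1.04 ± 0.30, adjusted p = 0.0612), again without overlap but not called. That control difference passed in DESeq2 (adjusted p = 0.00704), with only the groups compared (0.0228), with a replicate block (0.0444), and without mutant cold 2 (0.0373) or mutant cold 3 (0.0231). Atf6 is the sensor that becomes a transcription factor when cleaved. It had 84.6, 91.5 and 97.4 CPM in cold labelled mutants, against 52.1, 61.0 and 72.8 CPM at RT (0.56 ± 0.15, adjusted p = 0.0270). In controls its cold and RT libraries overlapped, at 72.6, 66.1 and 70.1 CPM in the cold, against 57.2, 80.9 and 61.6 CPM at RT (0.07 ± 0.15, adjusted p = 0.831). The Atf6 call was lost without mutant cold 1 or 2 or mutant RT 1 or 2 (adjusted p 0.0559 to 0.0923), and with only the groups compared (0.0585).

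Of the 4 genes for the stress kinases, the nuclease and the eIF2alpha phosphatase, Eif2ak3 alone was called. It had 17.7, 16.6 and 17.1 CPM in cold labelled mutants, against 12.4, 10.3 and 9.62 CPM at RT (log2 fold change 0.67 ± 0.18, adjusted p = 0.0226), without overlap. The call was lost without mutant cold 1 or 2 or mutant RT 2 or 3 (adjusted p 0.0607 to 0.0996). At RT the libraries labelled mutant all lay below the controls, which had 14.4, 21.2 and 13.2 CPM (-0.59 ± 0.18, adjusted p = 0.0738); edgeR did not call that difference, and DESeq2 did (0.0320). In the cold, controls had 19.3, 22.2 and 20.9 CPM (0.36 ± 0.18, adjusted p = 0.244 against RT). Without control RT 2, the highest of the RT controls, that difference was 0.59 and was called (0.0489). Ern1, Eif2ak4 and Ppp1r15a, the stress-induced regulatory subunit of the phosphatase, were not called in any comparison. Over the 12 libraries Ern1 ranged from 8.92 to 17.2 CPM with its highest value in mutant cold 3, Eif2ak4 from 11.9 to 16.2 CPM, and Ppp1r15a from 11.6 to 20.9 CPM.

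Of the 12 chaperones and folding factors of the reticulum, edgeR called 3 with cold, and these went both ways. In labelled mutants cold raised Manf and lowered Pdia6 and Dnajb9, where 10.0% of all tested genes were called higher and 7.42% lower. In controls none of the 12 was called by edgeR, with 5 at an unadjusted p under 0.05, as were 23.6% of all tested genes. DESeq2 called 3 of the 12 in controls, and 2018 genes in all. In controls 10 of the 12 had a negative log2 fold change, and their median was -0.29, with -0.01 for all tested genes. Without overlap, 1 of the 12 was higher and 5 were lower in cold controls, against 18.9% and 14.4% of all tested genes. In cold labelled mutants 1 was higher and 2 were lower without overlap, against 16.7% and 16.0%. Hspa5 (BiP) is the main chaperone of the reticulum and holds the sensors inactive. It had 406, 339.6 and 361 CPM in cold labelled mutants, against 356, 435 and 337 CPM at RT (log2 fold change -0.03 ± 0.19, adjusted p = 0.938), with full overlap. In controls Hspa5 had 284, 292 and 294 CPM in the cold, against 327, 586 and 449.9 CPM at RT (-0.65 ± 0.19, adjusted p = 0.0677). Every cold control stood below every RT control, but the call was missed in edgeR; it was made in DESeq2 (0.0113) and without control RT 1 (0.0186) or mutant cold 3 (0.0487). The interaction for Hspa5 was 0.62 ± 0.27 (adjusted p = 0.391).

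Manf is a secreted reticulum protein known as a survival factor under folding stress. It had 90.9, 102 and 46.2 CPM in cold labelled mutants, against 37.8, 36.2 and 34.8 CPM at RT (log2 fold change 1.14 ± 0.22, adjusted p = 0.00450). In controls Manf had 67.5, 68.2 and 65.9 CPM in the cold, against 39.2, 38.7 and 39.0 CPM at RT (0.79 ± 0.22, adjusted p = 0.0527). The cold groups stood apart from the RT groups in both genotypes, and mutant cold 3 was the lowest of the 6 cold libraries. The call in labelled mutants was kept whichever library was left out; the control difference was called in DESeq2 (adjusted p = 0.0151), with only the groups compared (0.00614), with a replicate block (0.0499), and without mutant cold 2 (0.0446) or 3 (0.000586). Pdia6 is a disulfide isomerase, and its promoter stretch is printed above. It had 133, 124 and 136 CPM in cold labelled mutants, against 167, 199 and 207 CPM at RT (-0.54 ± 0.13, adjusted p = 0.0142), without overlap. In controls Pdia6 had 117, 131 and 128 CPM in the cold, against 141, 180.1 and 145 CPM at RT (-0.31 ± 0.13, adjusted p = 0.177). The Pdia6 call was lost without mutant cold 1 or 2 or mutant RT 2 or 3 (adjusted p 0.0522 to 0.0622).

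Dnajb9 (ERdj4), a co-chaperone of Hspa5 and a known Xbp1 target, was the 1 chaperone called between genotypes. At RT it had 92.5, 119.6 and 92.3 CPM in libraries labelled mutant, against 61.3, 64.2 and 72.6 CPM in controls (log2 fold change 0.62 ± 0.12, adjusted p = 0.0120). In the cold it had 76.8, 77.9 and 74.0 CPM in libraries labelled mutant, against 55.2, 57.6 and 61.9 CPM in controls (0.39 ± 0.12, adjusted p = 0.168). The labelled mutants stood above the controls without overlap at both temperatures, but the cold difference was not called. The RT call was lost without mutant RT 2 (adjusted p = 0.0602) and with only the groups compared (0.0658). Cold lowered Dnajb9 in labelled mutants (-0.41 ± 0.12, adjusted p = 0.0390), a call lost without mutant RT 2 or any of the 6 cold libraries (adjusted p 0.0518 to 0.177). In controls the cold difference was -0.18 ± 0.12 (adjusted p = 0.405).

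The other 8 chaperones were not called in any comparison by edgeR. DESeq2 called Hsp90b1 lower with cold in controls (-0.44, adjusted p = 0.0359), where the groups did not overlap and edgeR gave -0.42 ± 0.15, adjusted p = 0.116. Over the 12 libraries, Hsp90b1 ranged from 216 to 354 CPM, Calr from 295 to 431 CPM, Canx from 188 to 293 CPM and Pdia3 from 145 to 205 CPM, so the highest library was 1.41 to 1.64 times the lowest for these abundant folding proteins. Pdia4, another disulfide isomerase, ranged more widely, from 25.9 to 85.6 CPM, and Sdf2l1 from 3.05 to 8.08 CPM. Pdia4 had 30.8, 25.9 and 67.7 CPM in cold labelled mutants, against 50.5, 80.0 and 85.6 CPM at RT (-0.80 ± 0.34, adjusted p = 0.143); without mutant cold 3 its fold change was -1.35 and it was called (adjusted p = 0.00398). Dnajc3, an inhibitor of the eIF2alpha kinases and co-chaperone, ranged from 61.8 to 109 CPM, and Creld2, a small stress-induced reticulum protein, from 10.0 to 17.4 CPM. Among the 7 genes with a stress element in their promoter, edgeR called 1 (Pdia6) lower with cold in labelled mutants, against 7.42% of all tested genes. It called 0 in controls, where 4.31% of all tested genes were called higher and 2.31% lower. DESeq2 called Hspa5 and Hsp90b1 of the 7 lower in controls, and 2018 genes in all. The median log2 fold change of the 7 was -0.04 in labelled mutants and -0.34 in controls, where that of all tested genes was -0.01 in both.

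Degradation from the reticulum was represented by 3 genes, and none was called in any comparison by edgeR or DESeq2. In edgeR 1 of them had an unadjusted p under 0.05 for cold in labelled mutants, 2 for cold in controls and 1 between genotypes in the cold. Of all tested genes, 30.9%, 23.6% and 15.3% had such a p in these comparisons. Herpud1 organises the ubiquitin ligase complex. It had 78.0, 104 and 74.5 CPM in cold labelled mutants, against 64.1, 68.9 and 62.7 CPM at RT (0.39 ± 0.14, adjusted p = 0.0798). Controls had 84.2, 83.4 and 105 CPM in the cold, against 69.6, 63.8 and 66.9 CPM at RT (0.44 ± 0.14, adjusted p = 0.0811). Neither pair of groups overlapped, and without mutant cold 3 both differences were called (adjusted p = 0.0310 and 0.0476). Edem1, which delivers misfolded glycoproteins for degradation, ranged from 60.7 to 98.6 CPM over the 12 libraries, and Sel1l, the ligase adaptor, from 69.5 to 129 CPM with its highest value in mutant cold 3.

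Of the 4 Atf4 targets outside metabolism and transport, counting Asns among them for its part in the amino acid response, Trib3 alone was called. Trib3 is a pseudokinase that restrains Atf4 and Akt signalling. It had 12.9, 22.5 and 32.2 CPM in cold labelled mutants, against 2.65, 5.87 and 3.73 CPM at RT (log2 fold change 2.47 ± 0.37, adjusted p = 0.00117). In controls Trib3 had 28.5, 15.9 and 29.3 CPM in the cold, against 6.77, 6.18 and 5.64 CPM at RT (1.99 ± 0.37, adjusted p = 0.009998). All 6 cold libraries stood above all 6 RT libraries, and both calls were kept whichever library was left out. Asns is asparagine synthetase, a classical Atf4 target. It had 76.3, 72.8 and 82.5 CPM in cold labelled mutants and 71.2, 65.7 and 66.4 CPM in cold controls, with 67.2, 86.4 and 67.5 CPM in labelled mutants at RT and 55.5, 80.7 and 64.8 CPM in controls at RT. Its cold differences were 0.07 ± 0.15 in labelled mutants and 0.02 ± 0.15 in controls (adjusted p = 0.799 and 0.963), so genes with the same kind of promoter element, printed above, took different values. Of the 5 genes with that element, cold raised Trib3 and Slc7a11 in labelled mutants, against 10.0% of all tested genes, and Trib3 in controls, against 4.31%. Asns, Chac1 and Herpud1 were not called, though Herpud1 was called in both genotypes without mutant cold 3, as given above.

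Chac1, an enzyme that breaks down glutathione, was not called in any comparison and was among the most variable genes of the set. It had 1.24, 4.16 and 13.2 CPM in cold labelled mutants, 1.93, 1.71 and 7.62 CPM in cold controls, 4.68, 2.31 and 8.71 CPM in labelled mutants at RT and 9.65, 3.81 and 11.9 CPM in controls at RT. Its 5 highest libraries, at 7.62 to 13.2 CPM, were the 5 in which skeletal muscle markers took the largest share of counts (0.652% to 2.76%), and the other 7 libraries were at 4.68 CPM or less. The part of muscle transcripts in the Chac1 level was not tested. Sesn2 is a stress-induced inhibitor of growth signalling. It had 18.0, 20.3 and 43.4 CPM in cold labelled mutants, against 34.3, 36.4 and 45.4 CPM at RT (-0.50 ± 0.31, adjusted p = 0.308). Mutant cold 3 stood far above the other 2 cold libraries of its group, and without it the difference was -1.02 and was called (adjusted p = 0.00951).

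Genes of serine and mitochondrial one-carbon synthesis went opposite ways with cold. Phgdh makes the first committed step from glycolysis to serine, Psat1 and Psph the second and the last, and Shmt2 and Mthfd2 then pass the serine carbon to folate inside mitochondria. With cold, Phgdh fell while Psph and Mthfd2 rose in labelled mutants, and Phgdh fell while Psph rose in controls. Psat1 was not called for cold, at -1.04 ± 0.37, adjusted p = 0.0794 in labelled mutants and -0.29 ± 0.37, adjusted p = 0.677 in controls; the mutant difference was called in DESeq2 (0.0209) and without mutant RT 1 (-1.30, 0.0398) or mutant cold 3 (-1.36, 0.0378). Phgdh had 22.4, 14.99 and 24.1 CPM in cold labelled mutants, against 90.0, 90.3 and 128 CPM at RT (log2 fold change -2.32 ± 0.26, adjusted p = 0.000223). Phgdh in controls had 11.5, 20.0 and 11.6 CPM in the cold, against 41.7, 44.1 and 31.8 CPM at RT (-1.45 ± 0.26, adjusted p = 0.00806). Cold and RT libraries did not overlap in either genotype, and both calls were kept whichever library was left out. Psph had 52.4, 63.5 and 33.4 CPM in cold labelled mutants, against 27.0, 32.9 and 23.6 CPM at RT (0.84 ± 0.20, adjusted p = 0.0144). In controls Psph had 47.7, 44.0 and 41.0 CPM in the cold, against 21.2, 20.1 and 22.2 CPM at RT (1.06 ± 0.20, adjusted p = 0.0114). Its groups did not overlap either, but the call in labelled mutants was lost without mutant cold 1 or 2 or mutant RT 3 (adjusted p 0.0598 to 0.0710) and with only the groups compared (0.0753), and that in controls without control cold 1 (0.0514) or 2 (0.0526).

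Mthfd2 is the mitochondrial folate dehydrogenase and a known Atf4 target. It had 15.9, 14.8 and 15.4 CPM in cold labelled mutants, against 2.60, 3.24 and 2.35 CPM at RT (log2 fold change 2.49 ± 0.40, adjusted p = 0.00163), and its call was kept whichever library was left out. Controls had 11.4, 6.19 and 8.61 CPM in the cold, against 6.14, 1.63 and 2.65 CPM at RT (1.32 ± 0.39, adjusted p = 0.0655). All 6 cold libraries stood above all 6 RT libraries. The control difference, not called, was called in DESeq2 (0.0110), with a replicate block (0.0413) and without control RT 1 (log2 fold change 2.02, adjusted p = 0.00619), the highest of the RT controls. Shmt2 splits serine in mitochondria. It had 22.1, 20.8 and 13.8 CPM in cold labelled mutants, against 16.2, 10.7 and 12.9 CPM at RT (0.51 ± 0.22, adjusted p = 0.146); without mutant cold 3 the difference was 0.69 and was called (adjusted p = 0.0350).

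Between genotypes, Phgdh and Psat1 were higher at RT in the libraries labelled mutant. Phgdh had 90.0, 90.3 and 128 CPM in labelled mutants at RT, against 41.7, 44.1 and 31.8 CPM in controls (log2 fold change 1.39 ± 0.25, adjusted p = 0.00747), without overlap, and was called whichever library was left out. Psat1 had 30.2, 56.3 and 61.6 CPM in labelled mutants at RT, against 21.1, 12.9 and 13.3 CPM in controls (1.64 ± 0.38, adjusted p = 0.0261), again without overlap. The Psat1 call was lost without mutant RT 2 or 3 or control RT 2 or 3 (adjusted p 0.0897 to 0.123), and with a replicate block (0.0568). In the cold, Psat1 had 22.6, 15.8 and 33.6 CPM in labelled mutants, against 9.23, 19.1 and 10.5 CPM in controls (0.89 ± 0.37, adjusted p = 0.285), and Phgdh differed by 0.51 ± 0.25 (adjusted p = 0.362). For both genes the cold groups overlapped and were not called, and their interactions were -0.88 for Phgdh and -0.75 for Psat1 (adjusted p = 0.341 and 0.625).

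The transporters that bring in cystine and large neutral amino acids were low in these libraries apart from their shared heavy chain, Slc3a2. Slc7a11 is the cystine and glutamate exchanger. It had 44 counts over the 3 cold libraries labelled mutant (12, 6 and 26), against 2 counts at RT (2, 0 and 0). The ratio of these sums, scaled to library size, was 22.4 with a 95% exact interval of 5.84 to 191 from counting alone. In controls it had 26 counts in the cold (8, 6 and 12), against 4 counts at RT (2, 2 and 0), a ratio of 7.35 with an interval of 2.55 to 29.0. edgeR called the labelled mutants (adjusted p = 0.0167) and not the controls (0.108); the call was lost without mutant RT 2 (0.0676) or 3 (0.0650), and the fitted fold of such a gene depends on the prior count. Slc7a5 is the light chain for large neutral amino acids. It had 3.97, 2.46 and 9.71 CPM in cold labelled mutants, against 1.63, 0.649 and 0.940 CPM at RT (log2 fold change 2.32 ± 0.60, adjusted p = 0.0199). Mutant cold 3 was far above the other libraries, and without it the fold change was 1.57 and the call was lost (adjusted p = 0.0566), as it was without mutant RT 2 or 3 (adjusted p up to 0.0800). In controls Slc7a5 had 2.20, 1.05 and 3.696 CPM in the cold, against 2.30, 1.74 and 1.04 CPM at RT (0.45 ± 0.57, adjusted p = 0.673), with overlap.

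Slc3a2 (CD98hc) pairs with both transporters. It had 163, 136 and 111 CPM in cold controls, against 72.8, 74.1 and 87.6 CPM in controls at RT (log2 fold change 0.81 ± 0.18, adjusted p = 0.0248), without overlap. The call was lost without any 1 of the 3 RT controls, and without control cold 1 or 2 (adjusted p 0.0541 to 0.101). In labelled mutants it had 139, 185 and 125 CPM in the cold, against 127, 119.7 and 97.0 CPM at RT (0.39 ± 0.18, adjusted p = 0.174), with overlap. At RT the labelled mutants all stood above the controls (0.55 ± 0.18, adjusted p = 0.104), a difference that edgeR did not call and DESeq2 did (0.0463).

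**Figure D2:**
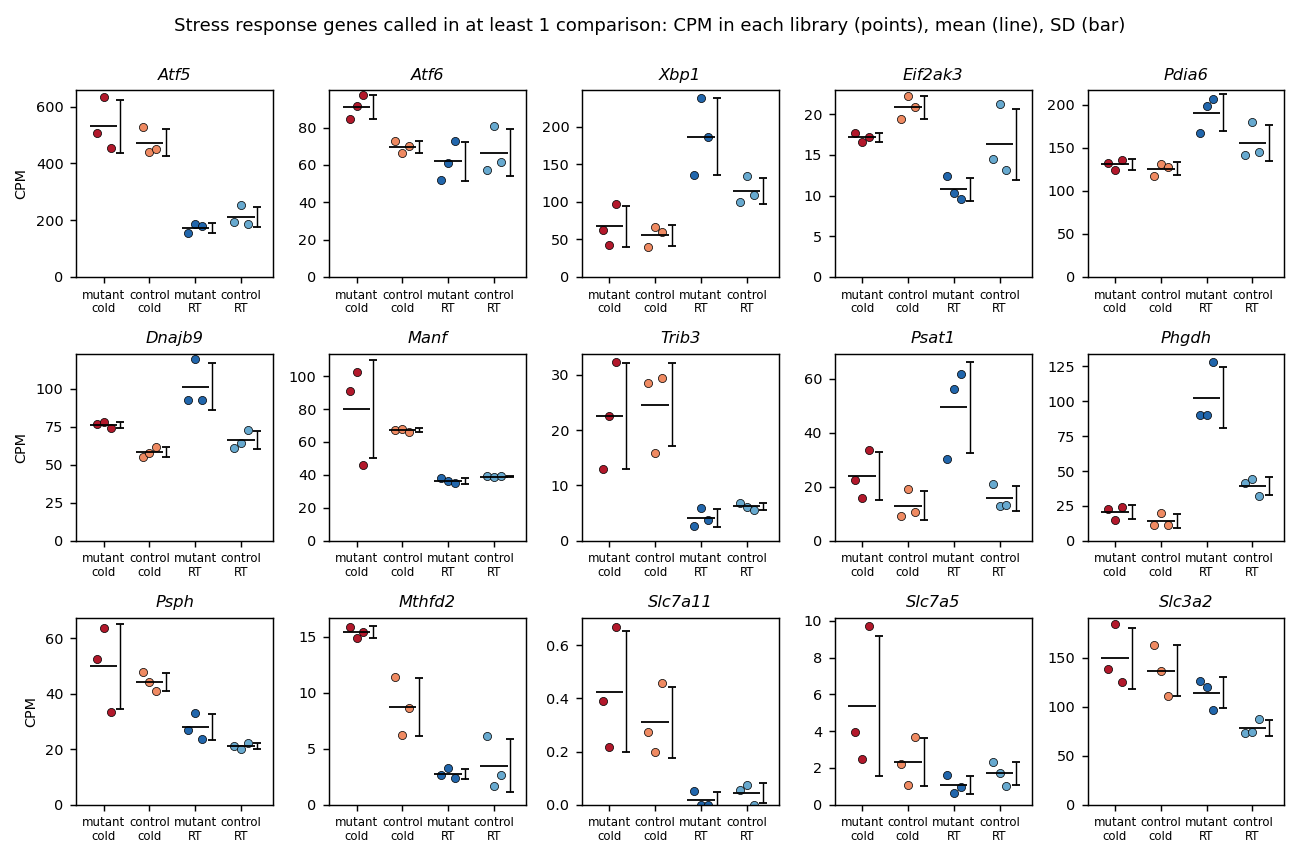
CPM (vertical axes, linear from 0) of the 15 genes called in at least 1 comparison, in each library (points), with the group mean (line) and SD (bar, n = 3); groups run from cold labelled mutants to RT controls. Atf5, Trib3 and Mthfd2 are higher in all 6 cold libraries than in all 6 RT libraries. Phgdh and Psat1 have their highest group mean in labelled mutants at RT.

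Between genotypes as labelled, edgeR called few of the 36 genes at RT and 0 in the cold. At RT edgeR called 3 of the 36 higher in the labelled mutants (Dnajb9, Psat1 and Phgdh), against 3.92% of all tested genes. It called 0 lower, against 2.32%. DESeq2 called 5 of the 36, and 1699 genes in all. In edgeR 8 of the 36 had an unadjusted p under 0.05, as did 20.1% of all tested genes. The median log2 fold change of the set was 0.04, and that of all tested genes -0.04. Without mutant RT 2 a single gene of the 36 was called at RT. Leaving out the 4 libraries rich in muscle markers leaves 1 control RT library. The RT log2 fold changes were then 0.73 for Dnajb9, 1.75 for Psat1 and 1.04 for Phgdh. In the cold edgeR called 0 of the 36 in either direction, against 0.727% of all tested genes higher and 0.393% lower. DESeq2 also called 0 of the 36, and 745 genes in all. In edgeR 6 of the 36 had an unadjusted p under 0.05 (Atf6, Pdia3, Sdf2l1, Dnajb9, Edem1 and Psat1), as did 15.3% of all tested genes. Without mutant cold 3, Manf was called (log2 fold change 0.53, adjusted p = 0.0418).

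In the cold, 28 of the 36 log2 fold changes were positive, with a median of 0.25; of all tested genes 49.0% were positive, with a median of -0.01. The chaperones made up much of this, with 11 of 12 positive and a median of 0.25, and 7 of them (Hspa5, Hsp90b1, Canx, Pdia3, Sdf2l1, Dnajb9 and Dnajc3) had every library labelled mutant above every control, as did 12.9% of all tested genes. Over the whole set 13 genes, 11 higher and 2 lower, did not overlap between genotypes in the cold, where 24.8% of all tested genes did not. At RT 9 genes, 6 higher and 3 lower, did not overlap, also against 24.8%. Pdia3 is the isomerase of glycoprotein folding. It had 184, 169 and 200.3 CPM in labelled mutants in the cold, against 145, 155 and 154 CPM in controls (0.29 ± 0.12, adjusted p = 0.298). Hspa5 had 369 ± 33.7 CPM in labelled mutants in the cold, against 289.7 ± 5.45 CPM in controls (SD, n = 3 each; 0.35 ± 0.19, adjusted p = 0.417). These differences were small, and none passed the test. Of the 36 genes, 9 had their highest value of all 12 libraries in mutant cold 3, the library with the epithelial markers, with the highest fibroblast sum of the 12 (1730 CPM) and with the largest muscle share of its group (0.652%) (Atf6, Ern1, Canx, Sdf2l1, Sel1l, Trib3, Chac1, Slc7a11 and Slc7a5), and 11 had their lowest in control cold 1; the part of either library in the shift was not tested.

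**Figure D3:**
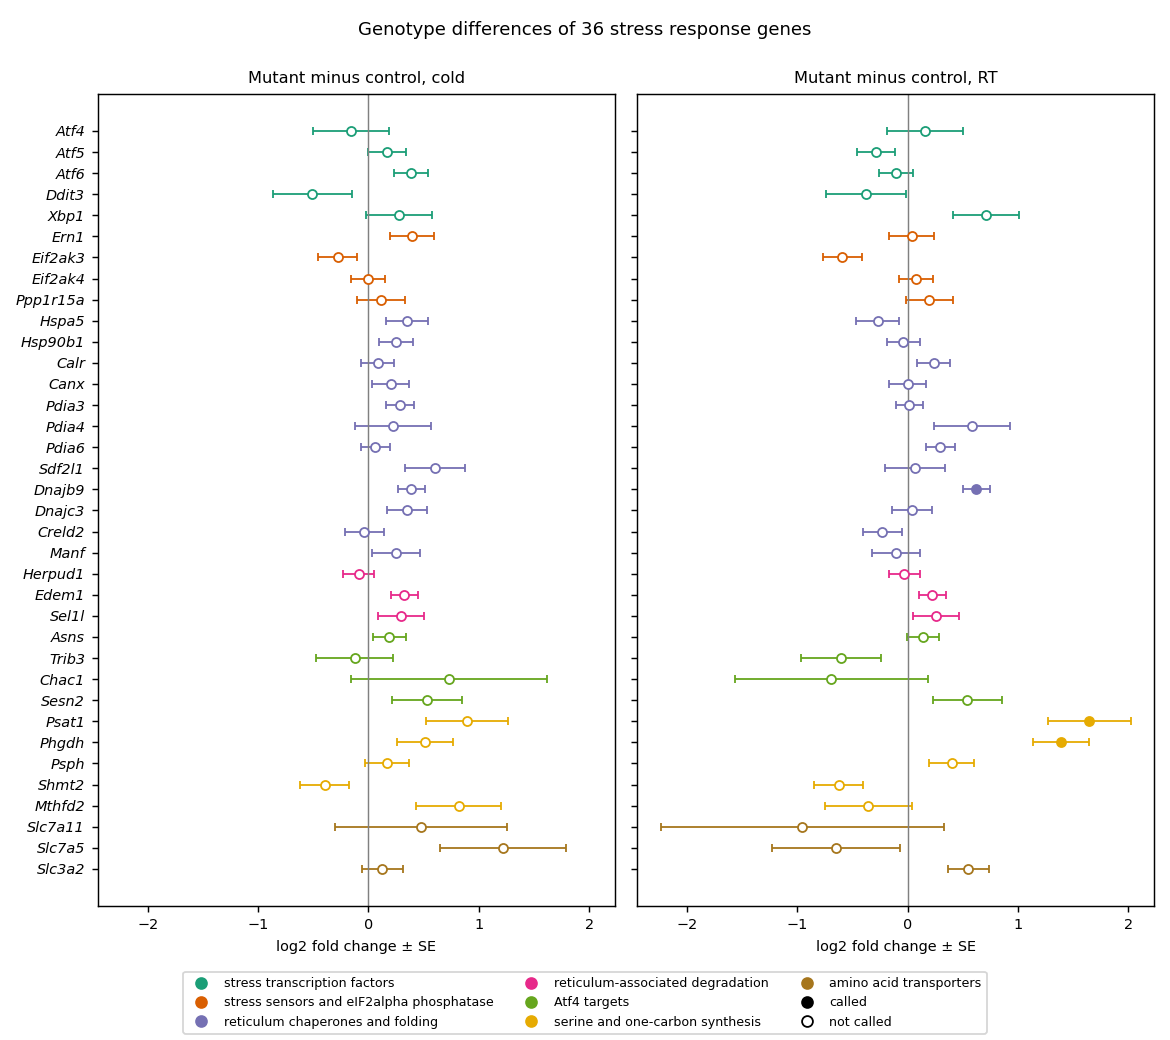
Log2 fold change of labelled mutant over control with its standard error (horizontal axis) for each of the 36 genes (rows, coloured by role), in the cold on the left and at RT on the right; filled points are called. In the cold no point is filled and 28 of 36 lie above 0, and at RT Dnajb9, Psat1 and Phgdh are filled.

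**Figure D4:**
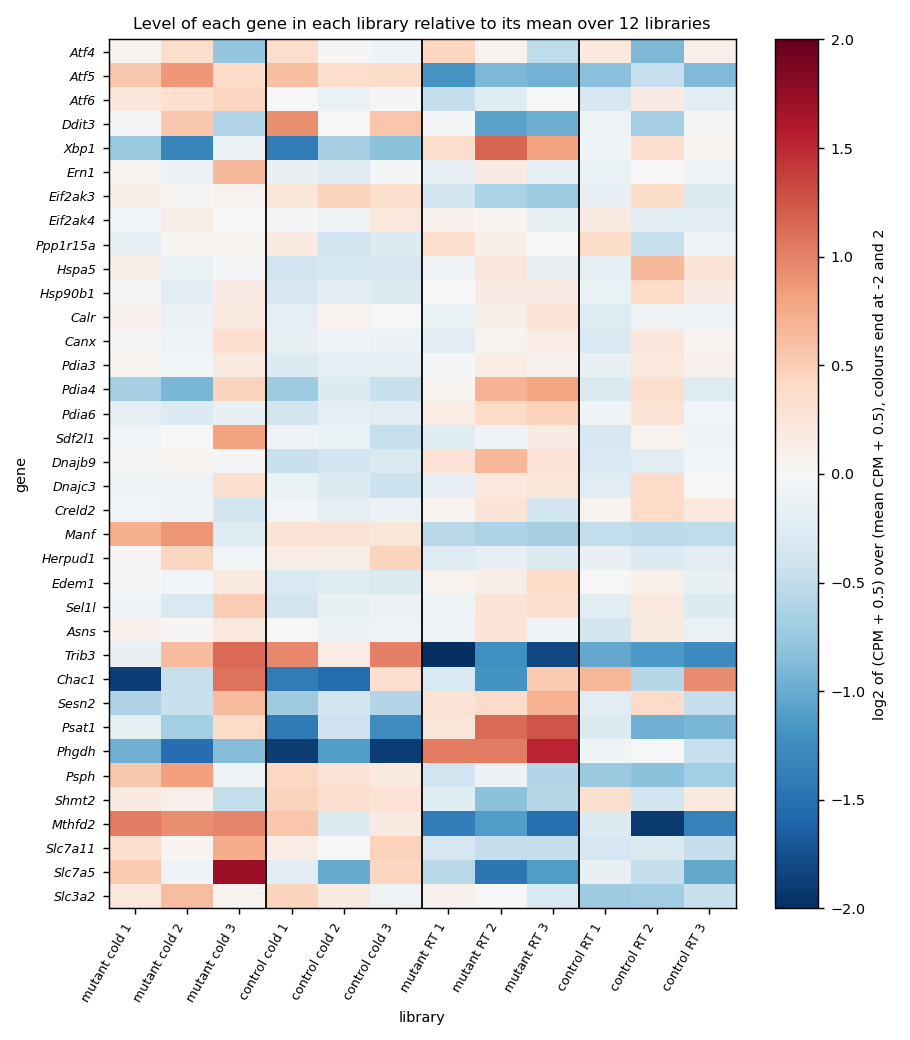
Level of each of the 36 genes (rows) in each of the 12 libraries (columns, grouped from cold labelled mutants to RT controls) as log2 of CPM plus 0.5 over the gene's mean CPM plus 0.5; colours end at -2 and 2. Atf5, Trib3, Mthfd2 and Psph are above their mean in most cold libraries, Phgdh and Xbp1 below it, and mutant cold 3 stands apart from mutant cold 1 and 2 in several rows, such as Pdia4, Sesn2 and Slc7a5.

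Wider lists of the same pathways held 130 genes, of which 129 were tested. Of the 37 calls of these lists named below, 8 were kept without the 4 muscle-rich libraries (Wars, Gars, Dnaja3, Clpx, Cth, Ero1l and Slc1a5 with cold in labelled mutants, and Gldc at RT), and the other 29 were lost (adjusted p 0.0541 to 0.639). Without those 4 libraries 1 control RT library is left, and the part of muscle content in the losses was not tested. With only the groups compared 24 of the 37 were kept. Among 21 further Atf4 targets (20 tested), cold raised 7 and lowered 3 in labelled mutants and raised 1 and lowered 1 in controls. The shares of all tested genes were 10.0% and 7.42% in labelled mutants and 4.31% and 2.31% in controls, so the control counts lay near the background. In the libraries labelled mutant 2 were higher in the cold (0.727% of all tested genes) and 3 at RT (3.92%). Their median log2 fold change was 0.33 for cold in labelled mutants and -0.03 in controls, where that of all tested genes was -0.01 in both. The 2 enzymes of transsulfuration, Cbs and Cth, were among those higher in the libraries labelled mutant. Cbs joins serine to homocysteine. It had 17.5, 9.16 and 16.6 CPM in labelled mutants in the cold, against 0.551, 2.44 and 1.64 CPM in controls (log2 fold change 3.22 ± 0.52, adjusted p = 0.0152). At RT it had 2.42, 6.95 and 5.73 CPM in labelled mutants, against 1.10, 0.799 and 1.19 CPM in controls (2.28 ± 0.51, adjusted p = 0.0218). Cth releases cysteine in the next step. It had 9.09, 7.82 and 15.5 CPM in labelled mutants in the cold, against 2.995, 4.48 and 2.97 CPM in controls (1.63 ± 0.27, adjusted p = 0.0181) and 2.93, 2.77 and 3.57 CPM in labelled mutants at RT (1.80 ± 0.28, adjusted p = 0.00114 for cold over RT). The labelled mutants were above the controls without overlap in each of these genotype comparisons. The Cbs call in the cold was lost without mutant cold 1 (0.0516) or control cold 3 (0.103), that at RT without mutant RT 2 (0.0866) or 3 (0.0682) or any RT control (0.0520, 0.0804 and 0.0814), and the Cth genotype call without control cold 1 (0.0833) or 3 (0.109).

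Slc1a5 is a glutamine and neutral amino acid transporter. It had 2146, 1856 and 2196 CPM in labelled mutants at RT, against 1075, 731 and 529 CPM in controls (1.41 ± 0.27, adjusted p = 0.00904). Cold lowered it in labelled mutants, to 643, 795 and 974.7 CPM (-1.36 ± 0.27, adjusted p = 0.00486), and both calls were kept whichever library was left out. Fgf21 is a hormone induced by Atf4. It had 2.96, 0.856 and 1.37 CPM in cold controls, against 0.274, 0 and 0 CPM at RT, where 2 libraries had 0 counts (adjusted p = 0.0436, with a fitted fold that depends on the prior count). That call was lost without any 1 of 9 libraries (adjusted p 0.0547 to 0.126), namely all but mutant RT 2, control RT 1 and mutant cold 3. Jdp2, a repressor of the AP-1 family, fell with cold in controls (-0.77 ± 0.19, adjusted p = 0.0307), a call lost without control RT 1 or 3 or any cold control (adjusted p 0.0702 to 0.120). Pck2, the mitochondrial carboxykinase, rose with cold in labelled mutants (0.77 ± 0.21, adjusted p = 0.0237), and was lost without mutant RT 1 (0.0699) or 3 (0.0807) or mutant cold 3 (0.0590). Eif4ebp1, a translation repressor, fell with cold in labelled mutants (-0.73 ± 0.21, adjusted p = 0.0355), a call lost without any 1 of 8 libraries (adjusted p 0.0511 to 0.107), namely all but control RT 1 and 2 and mutant cold 2 and 3.

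In wider one-carbon metabolism (14 genes), 3 were higher and 1 lower at RT in the libraries labelled mutant (3.92% and 2.32% of all tested genes), and 1 was higher in the cold (0.727%). The median genotype difference of the list was 0.03 at RT and 0.26 in the cold (log2). The largest genotype difference among the wider lists at RT was that of Gldc, the glycine-cleaving enzyme of mitochondria. It had 18.2, 15.6 and 15.5 CPM in labelled mutants at RT, against 0.384, 0.363 and 0.335 CPM in controls (log2 fold change 5.49 ± 0.47, adjusted p = 0.000245). In the cold it had 14.1, 11.01 and 6.90 CPM in labelled mutants, against 0.551, 1.91 and 0.686 CPM in controls (3.33 ± 0.42, adjusted p = 0.00355). No labelled mutant library overlapped with a control, and both calls were kept whichever 1 library was left out; the cold call was lost without the 4 muscle-rich libraries (0.127). Aldh1l1, which burns cytosolic folate carbon, was higher at RT in labelled mutants (1.37 ± 0.29, adjusted p = 0.0180), a call lost without mutant RT 2 (0.0676) or 3 (0.0672) or control RT 3 (0.0936). Shmt1, the cytosolic counterpart of Shmt2, was lower there (-1.07 ± 0.20, adjusted p = 0.00764), whichever library was left out. With cold in labelled mutants, Shmt1 (0.76 ± 0.20, adjusted p = 0.0201) and the thymidylate synthase Tyms (1.08 ± 0.25, adjusted p = 0.0113) rose and Mthfd2l fell (-0.70 ± 0.15, adjusted p = 0.00928). These calls were lost without mutant RT 2 or 3 or mutant cold 1 or 2 for Shmt1 (adjusted p 0.0629 to 0.0887), without mutant RT 2 (0.0549) or mutant cold 1 (0.0590) for Tyms, and without mutant cold 1 (0.0518) for Mthfd2l. In controls cold lowered Mat2a, which makes the methyl donor S-adenosylmethionine (-0.64 ± 0.17, adjusted p = 0.0458), a call lost without any 1 of 9 libraries (adjusted p 0.0510 to 0.170), namely all but mutant RT 1, control RT 2 and mutant cold 3.

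**Figure D5:**
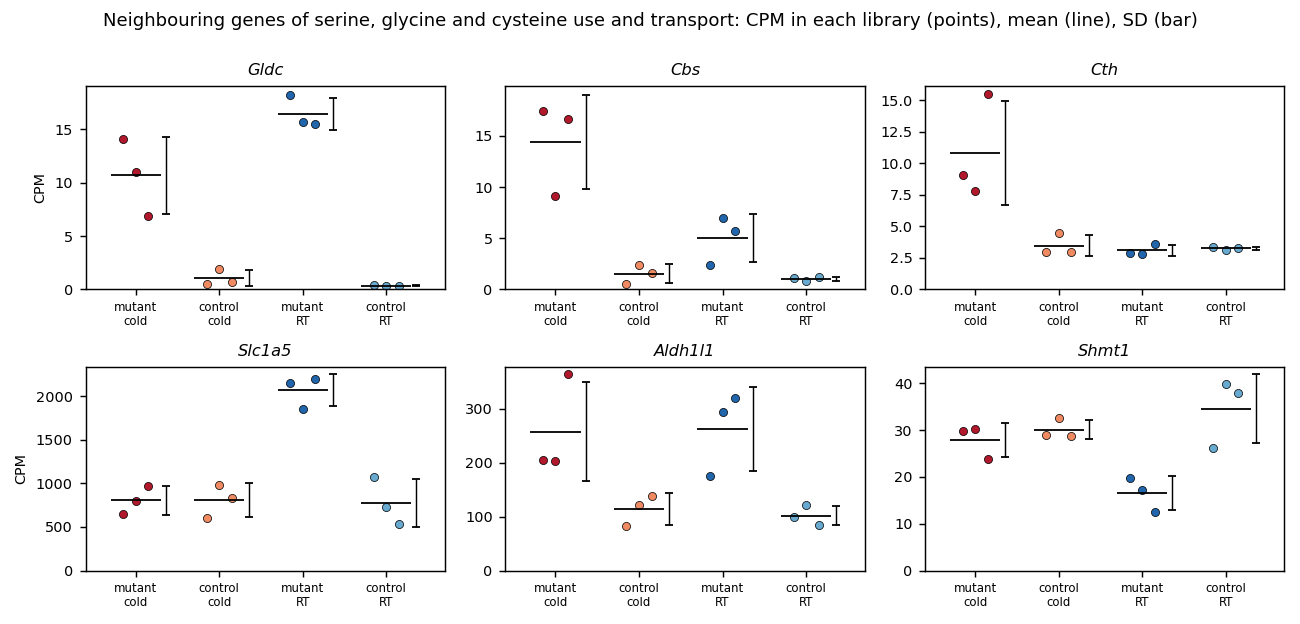
CPM (vertical axes, linear from 0) of 6 genes of serine, glycine and cysteine use and transport from the wider lists, in each library (points), with the group mean (line) and SD (bar, n = 3); groups run from cold labelled mutants to RT controls. The labelled mutants of Gldc, Cbs and Aldh1l1 lie above the controls at both temperatures, those of Cth in the cold, and Slc1a5 is highest in labelled mutants at RT.

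Of 18 cytosolic aminoacyl-tRNA synthetases, many of them Atf4 targets, cold raised 4 in labelled mutants (Gars, Iars, Wars and Yars; 10.0% of all tested genes) and 3 in controls (Gars, Wars and Yars; 4.31%), with none called lower. Their median log2 fold change was 0.23 in labelled mutants and 0.12 in controls. Wars had 86.2, 100.3 and 97.1 CPM in cold labelled mutants, against 56.0, 61.3 and 59.4 CPM at RT (log2 fold change 0.68 ± 0.10, adjusted p = 0.00103). In controls Wars had 80.0, 83.0 and 84.3 CPM in the cold, against 51.5, 56.8 and 49.9 CPM at RT (0.65 ± 0.10, adjusted p = 0.00465). Gars rose in labelled mutants (0.82 ± 0.13, adjusted p = 0.00133) and Yars in controls (0.51 ± 0.10, adjusted p = 0.0101); the Yars call was lost without control cold 3 (0.0594) and the others were kept whichever 1 library was left out. Mitochondrial chaperones and proteases (10 genes) had 5 higher with cold in labelled mutants (10.0% of all tested genes) and 2 in controls (4.31%), with medians of 0.78 and 0.36. Dnaja3 is a mitochondrial co-chaperone. It had 544, 557 and 515 CPM in cold labelled mutants, against 191, 195 and 204 CPM at RT (1.45 ± 0.13, adjusted p = 7.61e-05). It also rose in controls (0.78 ± 0.13, adjusted p = 0.00573), and the unfoldase Clpx rose in labelled mutants (1.08 ± 0.15, adjusted p = 0.000682), all kept whichever library was left out. The protease Lonp1 rose in controls (0.60 ± 0.15, adjusted p = 0.0340), a call lost without any 1 of 9 libraries (adjusted p 0.0507 to 0.158), namely all but mutant RT 1 and mutant cold 2 and 3. The protease subunit Afg3l2 was lower at RT in the libraries labelled mutant (-0.58 ± 0.15, adjusted p = 0.0447), a call lost without any 1 of 10 libraries (adjusted p 0.0549 to 0.201), namely all but control RT 1 and mutant cold 3, and also with RLE size factors (0.0511), a replicate block (0.0654), no filter on low counts (0.0709) and only the groups compared (0.108).

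Calls in the wider reticulum lists are read beside those of all tested genes. Of these, cold raised 10.0% and lowered 7.42% in labelled mutants, and raised 4.31% and lowered 2.31% in controls. At RT 3.92% were higher and 2.32% lower in the libraries labelled mutant. The medians of the folding, degradation and translocation lists lay between -0.21 and -0.10 for cold in both genotypes. Of 20 further folding and glycosylation genes, cold raised the disulfide oxidase Ero1l in labelled mutants (0.75 ± 0.15, adjusted p = 0.00485). It lowered P4hb (-0.83 ± 0.22, adjusted p = 0.0218) and the retrieval receptor Kdelr1 (-0.36 ± 0.10, adjusted p = 0.0251) in the same genotype. In controls 0 of 20 were called by edgeR or DESeq2, with 4 at an unadjusted p under 0.05 in edgeR (23.6% of all tested genes). Pdia5 was lower at RT in the libraries labelled mutant (-1.29 ± 0.32, adjusted p = 0.0348). Of 15 further degradation genes, cold lowered 3 in labelled mutants, among them Os9 (-0.64 ± 0.18, adjusted p = 0.0276) and Edem2 (-0.49 ± 0.14, adjusted p = 0.0329), which recognise misfolded glycoproteins. Derl1, a channel component, rose with cold in controls (0.97 ± 0.16, adjusted p = 0.00631) and was higher at RT in the labelled mutants (0.62 ± 0.16, adjusted p = 0.0435). Ero1l and the cold call of Derl1 were kept whichever library was left out. P4hb, Os9 and Edem2 were lost without mutant RT 2 or 3 or mutant cold 1 or 2 (adjusted p 0.0650 to 0.133), Kdelr1 without mutant RT 2 or mutant cold 1 or 2 (0.0669 to 0.129), Pdia5 without mutant RT 2 or 3, control RT 2 or 3 or any cold control (0.0579 to 0.140), and the RT call of Derl1 without any 1 of 8 libraries (0.0730 to 0.192), namely all but mutant RT 1, control RT 2 and mutant cold 2 and 3. Of 14 translocation and signal peptidase genes 0 were called in any comparison by edgeR or DESeq2, with 1 to 4 at an unadjusted p under 0.05 in edgeR. Of all tested genes, 12.2% to 30.9% had such a p. Of 18 further sensors and regulators, 1 was called: Bbc3 (Puma), a death-promoting protein induced by stress, rose with cold in labelled mutants (1.05 ± 0.23, adjusted p = 0.00790) and in controls (1.40 ± 0.23, adjusted p = 0.00512), whichever library was left out.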

How the data were processed

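RNA was measured by sequencing in whole brown adipose tissue of 12 mouse libraries. Per the labels' protocols, RNA was extracted with TRIzol and Purelink columns and libraries were made with the NEBNext Ultra RNA kit. The deposited values are whole-number read counts per gene. The submitters' processing notes name STAR, featureCounts and build mm9 for the authors' steps. Neither tool versions nor the annotation, the strand mode or the rule for multi-mapped reads are given in the sources used here, so near-identical or antisense genes may share reads. Samples were grouped by the genotype and temperature in the labels, and 0 columns of the table were left unused.

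Genes were kept with edgeR 4.0.16 (R 4.3.3, limma 3.58.1) by filterByExpr with a minimum count of 10 and a minimum total of 15, and scaled with TMM. One quasi-likelihood model with robust dispersions took all 12 libraries, with 1 coefficient for each of the 4 groups, and gave 5 contrasts. Adjusted p is by Benjamini-Hochberg over the 15265 genes tested, with a threshold of 0.05. The standard error of a log2 fold change is its size divided by the square root of F, and intervals for summed counts are exact 95% intervals.

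The 36 genes and the wider lists were chosen with earlier results of these data known. A gene of the set was given its level in all 12 libraries where it was called in at least 1 comparison, and always for Atf4, Ddit3, Xbp1, Hspa5, Trib3, Asns and Phgdh. The wider lists named up to 2 called genes per direction and comparison, those with the smallest p and a mean of at least 1 CPM. Other values were chosen after they were seen.

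On simulated counts for mutant against control at RT (13113 genes, 200 changed), edgeR recovered 51% of changes of log2 size 1 and 100% of those of size 2, with 12 false calls. DESeq2 1.42.0 recovered 56% and 100%, with 25 false calls. Counts of libraries in 1 group differed by more than sampling noise (chi-square per degree of freedom 38.2 to 234), so each library was counted as its own. Alternatives, 19 in all, changed 1 choice at a time: scaling, filter, tool, libraries in the fit, a replicate block, each library left out, the 4 libraries rich in muscle markers left out, and edgeR without its legacy mode, which was added after the data were seen.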

Additional observations from a re-analysis of the deposited data

How the results depend on the processing

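Of 21 calls of the 36 genes in all comparisons, RLE size factors kept 21, DESeq2 21, edgeR without legacy mode (added after seeing the data) 21, no filter on low counts 20, a replicate block 20, and only the groups compared 16 of 20; no called direction reversed. Leaving out each library in turn kept 13 (without mutant RT 2) to 20. Without the 4 libraries rich in muscle markers, which leaves 1 control RT library assumed to vary like the other groups, 5 were kept: Atf5, Atf6, Trib3, Phgdh and Mthfd2 with cold in labelled mutants. Genes higher at RT in labelled mutants numbered 3, with 1 to 3 when a library was left out and 0 without the muscle-rich libraries; lower ones numbered 0, and 1 by DESeq2. In the cold 0 to 1 were higher, the 1 without mutant cold 3. Cold in labelled mutants raised 9, with 5 to 10 when a library was left out (5 without mutant RT 2 or 3) and 4 without the muscle-rich libraries. It lowered 4, with 2 to 6 (2 without mutant RT 2 or mutant cold 1 or 2, 6 without mutant cold 3) and 1. In controls cold raised 4, with 2 to 6 (2 without control cold 1 or 2, 6 without mutant cold 3) and 0. It lowered 1, with 1 to 3 (3 without mutant cold 3), 4 by DESeq2, 2 with only the groups compared, 2 with the replicate block and 0 without the muscle-rich libraries. The interaction needs all groups, so the fit on only the groups compared was not run for it, and it gave 0 under the other 18. The cause of these shifts was not tested. Same-numbered libraries deviated together in all 3 pairs, with correlations over 0.1, between genotypes at RT (0.165 to 0.719) and across temperature in controls (0.142 to 0.647), but not in the other comparisons (lowest -0.0306 and 0.0272), and no label ties a number to a litter or day. The block changed no calls of named genes but those given with Psat1, Xbp1, Manf, Mthfd2 and Afg3l2. Dnajb9 was lost in cold labelled mutants without the filter (0.0525). Of the 37 named calls of the wider lists, RLE size factors and the block kept 36 each, no filter 32, and DESeq2 and edgeR without legacy mode 37 each. Slc7a11, with 44 counts or fewer a group, is limited by counting depth.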
